A study of Mus musculus with 8 samples.

Results

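The 10 genes described here mark M2-type and tissue-resident macrophages: Mrc1, Cd163, Retnla, Mgl2, Clec10a, Lyve1, Folr2, Stab1, Timd4 and Cbr2. They were taken by symbol, with no threshold on a value, and all 10 were found among the 23212 genes of the count tables. RNA-seq counts came from whole perigonadal fat of 4 mice with an adipocyte-specific gene knockout (KO) and 4 wild-type (WT) mice. All were C57BL/6 mice, 20 weeks old, that had eaten a diet with 45% fat for the 12 weeks from 8 weeks of age, and the submitters matched the genotypes for age and weight. The knockout is labelled as limited to adipocytes, so the macrophages of KO mice are not its labelled target, and the driver of the deletion is not given in the sources used here. Each library is 1 mouse, and whole fat holds adipocytes, endothelium, mesothelium and many kinds of immune cell beside macrophages.

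Macrophages of fat fall along a range that is often described by its ends. Resident and M2-type cells take up debris, lipoproteins and sugars through scavenger receptors and lectins, and in mice the cytokines IL-4 and IL-13 raise many of their genes through the receptor chain Il4ra and the transcription factor Stat6. In obese fat, recruited macrophages that carry Itgax (CD11c) and load themselves with lipid gather around dying adipocytes. The share of both kinds is a common readout of adipose inflammation in obesity.

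Libraries held between 46444435 and 51431956 counts. KO 2 and WT 3 stood apart in epithelial transcripts: Epcam was at 19.6 CPM in KO 2 and 5.79 CPM in WT 3, and below 0.5 CPM in the other 6 (CPM are counts scaled to the size of each library). Across the transcriptome, 2 of 14493 genes passed an adjusted p of 0.05 in edgeR's quasi-likelihood test, both lower in KO fat, which is 0.0138% of the genes tested. One of them, named here after its values were seen, was Morf4l1, a chromatin protein. The adipocyte hormone Adipoq, which checks the labelled tissue, averaged 5110 ± 1356 CPM in KO fat and 5243 ± 1298 CPM in WT fat (SD, n = 4 each).

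Promoter sequence for 8 of the 10 genes, in 9 windows of 250 bases before the RefSeq start (GRCm38.p6, the mm10 assembly), was searched on both strands for letters bound by 4 kinds of factor with known roles in macrophages. These are the PU.1 core GAGGAA, the STAT6 element TTCNNNNGAA, the C/EBP element TTGCNNAA and the MAF site TGCTGAC, where N is any base. The windows of Mrc1, Timd4 and Retnla are shown because Retnla had the highest level per length, Timd4 the lowest, and Mrc1 followed the general macrophage genes most closely. Matches are in capitals, read 5′ to 3′ on the strand of the gene, and TTCCTC and GTCAGCA are the PU.1 and MAF letters of the other strand. The Retnla sequence stops where the authors' annotation starts the gene.
Mrc1, chr2:14229164-14229413, plus strand: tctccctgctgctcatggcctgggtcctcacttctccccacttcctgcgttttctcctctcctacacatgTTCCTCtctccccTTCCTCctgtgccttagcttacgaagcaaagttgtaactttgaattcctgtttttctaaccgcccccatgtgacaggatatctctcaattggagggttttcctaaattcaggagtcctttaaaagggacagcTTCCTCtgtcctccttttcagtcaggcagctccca
Timd4, chr11:46810549-46810798, plus strand: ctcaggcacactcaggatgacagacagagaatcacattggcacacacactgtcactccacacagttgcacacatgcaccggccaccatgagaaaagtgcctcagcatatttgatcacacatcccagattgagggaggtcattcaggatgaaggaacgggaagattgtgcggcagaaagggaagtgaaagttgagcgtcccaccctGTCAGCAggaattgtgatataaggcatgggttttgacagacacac
Retnla, chr16:48842359-48842551, plus strand: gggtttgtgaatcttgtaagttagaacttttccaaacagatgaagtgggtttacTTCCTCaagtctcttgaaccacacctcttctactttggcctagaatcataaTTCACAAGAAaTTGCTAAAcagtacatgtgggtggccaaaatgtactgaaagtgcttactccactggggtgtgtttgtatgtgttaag

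The STAT6 letters stood in 5.85% of the 32851 windows of the promoter table, and among the members only in that of Retnla, 145 to 136 bases before its start. The C/EBP letters, at 9.56% of all windows, were again in Retnla alone, 134 to 127 bases before the start and so next to the STAT6 letters without overlap. The Retnla promoter is known in mice for neighbouring sites of these factors that act in its induction by IL-4. The PU.1 letters, at 23.3% of all windows, stood in 5 of the 9 windows, those of Mrc1, Mgl2, Cbr2, Stab1 and Retnla. The MAF letters, at 3.81% of all windows, stood in those of Timd4 and Retnla, in Retnla 48 to 42 bases before the start and so past the printed stretch. A match is a description of the letters and not a site in use, and no match says only that these letters are not in that window.

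All 10 genes passed the filter on low counts, and their levels in KO and WT fat overlapped in every case. Of the 10, 5 had a log2 fold change of KO over WT above 0 and 5 below, between -0.18 for Timd4 and 0.22 for Mrc1. Their median was 0.0128, beside 0.011 over all genes tested. None passed in edgeR's quasi-likelihood test, with an adjusted p of 0.9999 for each, against 0.0138% of all genes, and none had an unadjusted p under 0.05, against 2.23% of all genes. DESeq2 and limma voom also called 0 of the 10. No member had groups that did not overlap, against 1.44% of all genes. In bulk fat, fewer macrophages and less RNA of a gene per macrophage cannot be told apart.

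Mrc1 encodes the mannose receptor CD206, an endocytic lectin and the most used M2 marker in fat. The gene lies on chromosome 2, 14229414 to 14332023 (mm10, plus strand), with 5318 exonic bases in the authors' annotation. It stood at 68.9, 49.6, 53.3 and 116 CPM in the KO libraries 1 to 4, against 27.7, 28.0, 102 and 88.6 CPM in the WT libraries 1 to 4. The highest library was KO 4 and the lowest were WT 1 and WT 2, with the other libraries between them. The means were 71.9 ± 30.4 CPM in KO fat and 61.6 ± 39.4 CPM in WT fat (SD, n = 4 each), for a log2 fold change of 0.22 with an SE of 0.48.

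Mgl2 and Clec10a encode the galactose-type lectins CD301b and CD301a, which bind galactose and N-acetylgalactosamine and are also carried by some dendritic cells. They are neighbours on chromosome 11, at 70130357 to 70137542 and 70166623 to 70170836 (plus strand), 29.1 kb apart. Their transcripts have 89.7% identity over the aligned bases and share runs of up to 183 bases, and 13.1% of the 50-base words of Mgl2 and 9.02% of those of Clec10a occur in transcripts of other genes, so counts could have been split between them. Mgl2 stood at 25.6, 24.8, 24.4 and 33.9 CPM in KO libraries 1 to 4, against 10.7, 16.4, 41.1 and 36.5 CPM in WT libraries 1 to 4. All 4 KO values lay inside the range of the WT values. Its means were 27.2 ± 4.52 CPM in KO fat and 26.2 ± 14.9 CPM in WT fat (SD, n = 4 each), for a log2 fold change of 0.06 with an SE of 0.39. Clec10a stood at 31.7, 31.0, 39.2 and 53.8 CPM in KO libraries 1 to 4, against 17.4, 18.5, 64.5 and 58.9 CPM in WT libraries 1 to 4. As for Mgl2, WT 1 and WT 2 lay below every KO library and WT 3 and WT 4 above. The means of Clec10a were 38.9 ± 10.6 CPM in KO fat and 39.8 ± 25.4 CPM in WT fat (SD, n = 4 each), for a log2 fold change of -0.03 with an SE of 0.45.

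**Figure D1:**
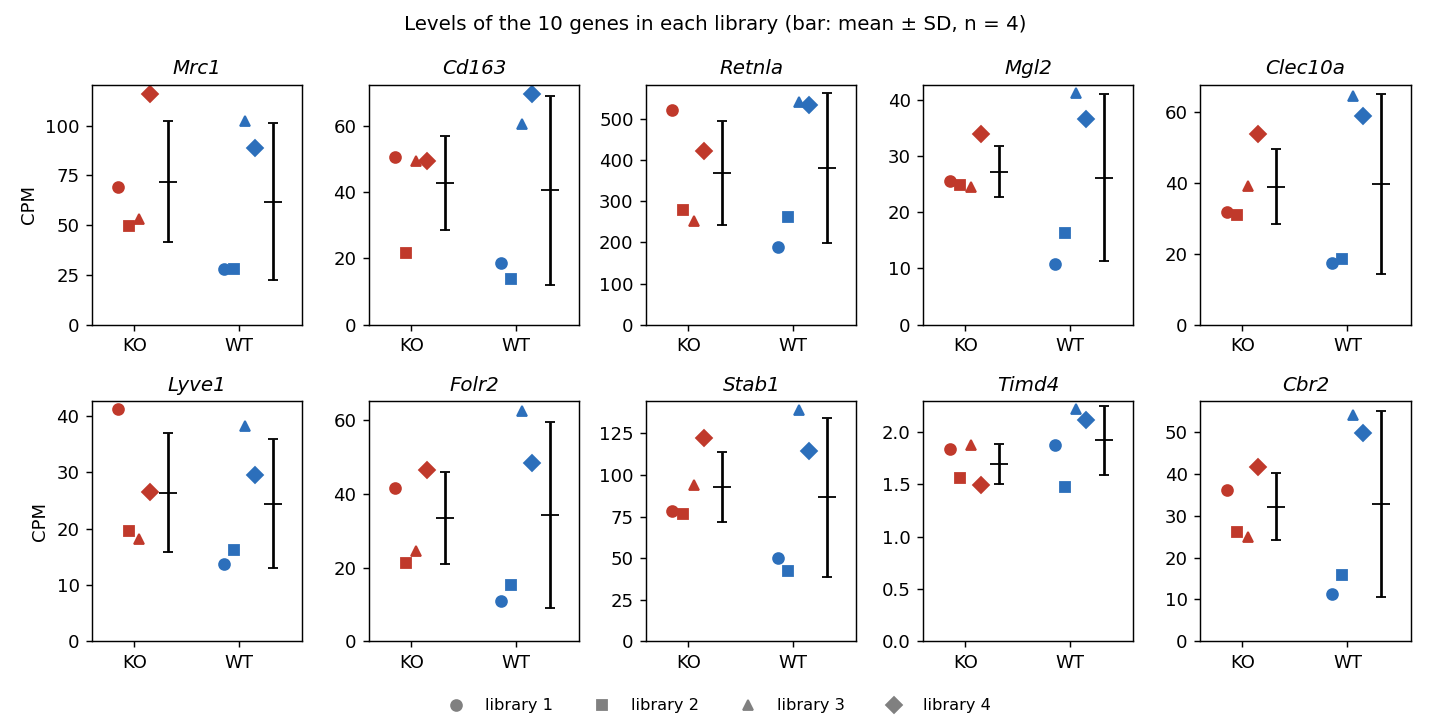
CPM of the 10 genes in each library, with KO libraries left of WT libraries in every panel. Points are single mice, and the KO points fall inside the range of the WT points for 8 of the 10 genes.

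The scavenger receptors followed the same picture. Cd163 takes up haemoglobin bound to haptoglobin and lies on chromosome 6, 124304651 to 124330527 (plus strand). It stood at 50.6, 21.7, 49.5 and 49.4 CPM in KO libraries 1 to 4, against 18.6, 13.7, 60.6 and 69.6 CPM in WT libraries 1 to 4. KO 2 was set well below the other 3 KO libraries, which were nearly equal. The means were 42.8 ± 14.1 CPM in KO fat and 40.6 ± 28.5 CPM in WT fat (SD, n = 4 each), for a log2 fold change of 0.08 with an SE of 0.53. Stab1 encodes stabilin-1, which clears modified lipoproteins and matrix fragments and is also made by the sinusoidal endothelium of some organs. The gene lies on chromosome 14, 31139017 to 31168641 (minus strand), and 108 of its 7995 exonic bases are shared with Nt5dc2. It stood at 78.4, 76.4, 94.1 and 122 CPM in KO libraries 1 to 4, against 50.03, 42.5, 139 and 114 CPM in WT libraries 1 to 4. The KO values again lay inside the WT range. The means were 92.8 ± 21.2 CPM in KO fat and 86.6 ± 47.7 CPM in WT fat (SD, n = 4 each), for a log2 fold change of 0.10 with an SE of 0.38.

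Lyve1, Folr2 and Timd4 encode surface receptors that are used to tell resident macrophages from recruited ones. Lyve1 binds hyaluronan and marks both perivascular macrophages and lymphatic endothelium (chromosome 7, 110850607 to 110862953, minus strand). It stood at 41.2, 19.6, 18.1 and 26.6 CPM in KO libraries 1 to 4, against 13.7, 16.2, 38.2 and 29.6 CPM in WT libraries 1 to 4. KO 1 was the highest of the 8, which among the members was so for Lyve1 only. The means were 26.4 ± 10.5 CPM in KO fat and 24.4 ± 11.5 CPM in WT fat (SD, n = 4 each), for a log2 fold change of 0.11 with an SE of 0.37. Folr2, the beta form of the folate receptor, lies on the same chromosome at 101839988 to 101845331 (minus strand). It stood at 41.5, 21.3, 24.4 and 46.6 CPM in KO libraries 1 to 4, against 10.9, 15.4, 62.5 and 48.6 CPM in WT libraries 1 to 4. Its highest library, WT 3, was 5.73 times its lowest, WT 1, the widest range among the 10 genes. The means of Folr2 were 33.5 ± 12.5 CPM in KO fat and 34.3 ± 25.2 CPM in WT fat (SD, n = 4 each), for a log2 fold change of -0.04 with an SE of 0.54.

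Timd4 was the rarest member. It encodes TIM-4, a receptor for phosphatidylserine on dying cells that marks long-lived resident macrophages, and lies on chromosome 11, 46810799 to 46844333 (plus strand). It stood at 1.84, 1.56, 1.87 and 1.49 CPM in KO libraries 1 to 4, against 1.88, 1.47, 2.22 and 2.12 CPM in WT libraries 1 to 4. These levels rest on 73 to 114 counts per library. The coefficient of variation was 11.3% in KO fat and 17.3% in WT fat, beside 10.99% and 10.25% that counting error alone would give at those depths. The means were 1.69 ± 0.192 CPM in KO fat and 1.92 ± 0.333 CPM in WT fat (SD, n = 4 each), for a log2 fold change of -0.18 with an SE of 0.24. Its highest library was only 1.51 times its lowest, against 2.87 times or more for each of the other 9 genes.

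Retnla encodes RELM alpha (FIZZ1), a secreted protein that IL-4 induces strongly in mouse macrophages, and lies on chromosome 16, 48842552 to 48844461 (plus strand). It stood at 523, 279, 252 and 422 CPM in KO libraries 1 to 4, against 188, 261, 541 and 534 CPM in WT libraries 1 to 4. The means were 368.9 ± 127 CPM in KO fat and 381 ± 183 CPM in WT fat (SD, n = 4 each), for a log2 fold change of -0.05 with an SE of 0.38. Cbr2, a carbonyl reductase known as a marker of resident macrophages in several mouse tissues, lies on chromosome 11, 120729485 to 120732021 (minus strand). Of its 50-base words, 12.1% also occur in transcripts of Gm11771, so its counts are uncertain to that extent. Cbr2 stood at 36.1, 26.0, 24.8 and 41.5 CPM in KO libraries 1 to 4, against 11.4, 15.9, 54.1 and 49.8 CPM in WT libraries 1 to 4. The 4 KO values of Cbr2 lay above WT 1 and WT 2 and below WT 3 and WT 4, while for Retnla the KO values lay inside the WT range with KO 3 just under WT 2. The means of Cbr2 were 32.1 ± 8.04 CPM in KO fat and 32.8 ± 22.3 CPM in WT fat (SD, n = 4 each), for a log2 fold change of -0.03 with an SE of 0.48.

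**Figure D2:**
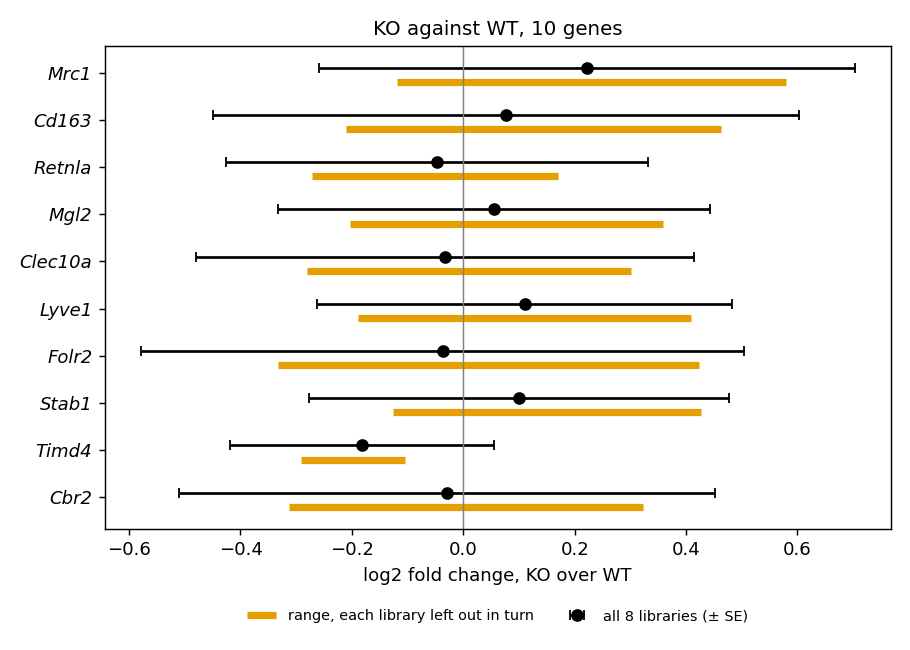
Log2 fold changes of KO over WT for the 10 genes from edgeR, with points for all 8 libraries, whiskers for 1 SE and orange bars for the range over the fits that leave out 1 library each. The orange bar crosses 0 for every gene but Timd4, whose range was -0.29 to -0.11.

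The direction of 9 of the 10 members depended on single mice. Leaving out each library in turn moved the log2 fold change of Mrc1 over -0.12 to 0.58, that of Cd163 over -0.21 to 0.46 and that of Folr2 over -0.33 to 0.42. Timd4 was below 0 each time, at -0.29 to -0.11.

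Per kilobase of exon, the levels spanned a wide range in an order that was partly fixed. Retnla was the most abundant in each of the 8 libraries, at 627 ± 244 CPM per kb (SD, n = 8), and Timd4 the least in each, at 0.831 ± 0.129 CPM per kb. Cbr2 at 31.8 ± 15.2, Folr2 at 31.4 ± 17.02 and Clec10a at 26.2 ± 12.01 CPM per kb took ranks 2 to 4 and swapped places between libraries. Mgl2 held rank 5 in every library, at 17.2 ± 6.58 CPM per kb. Mrc1 at 12.6 ± 6.22, Stab1 at 11.2 ± 4.30, Lyve1 at 9.74 ± 3.94 and Cd163 at 9.29 ± 4.64 CPM per kb shared ranks 6 to 9 and did not keep an order among themselves. Mrc1, the usual marker, was thus below both CD301 lectins per unit of length in all 8 libraries. In KO 4 it was nearly level with Mgl2, at 21.77 against 21.89 CPM per kb, and the counts of both lectins are uncertain through their shared sequence.

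In these values the spread between mice differed more between genotypes than the mean did. The SD of log2 CPM was smaller in KO than in WT fat for all 10 members, while among all genes tested it was smaller in KO fat for 41.6%. Mgl2 had an SD of 0.22 in KO fat and 0.93 in WT fat, Cbr2 of 0.36 and 1.14, Clec10a of 0.37 and 1.03, and Stab1 of 0.31 and 0.85. The ratio of the SDs, WT over KO, was nearest to 1 for Lyve1, at 1.30 (0.54 in KO fat and 0.70 in WT fat). The median ratio was 2.09 over the members and 0.89 over all genes. For 8 of the 10 members, all except Mrc1 and Lyve1, every KO library lay inside the range of the WT libraries, which held for 17.6% of all genes. WT 1 and WT 2 were below WT 3 and WT 4 for 10 of 10 members, WT 1 being the lowest of the 8 libraries for 7 members and WT 2 for 3. WT 3 was the highest of the 8 for 7 members.

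The wider WT spread was seen for 10 of 10 members without any single library except WT 2, when it was seen for 9. It was also 9 of 10 without both WT 3 and KO 2, libraries that stand apart in epithelial genes. The share of all genes with a wider WT spread moved too. It ran from 33.4% without WT 2 to 54.4% without KO 2, and was 52.9% without both WT 3 and KO 2. The median ratio over the members ranged from 1.86 to 3.16 over single libraries left out. The members follow one another across mice, so these are not 10 independent observations, and no test was made of the difference in spread. In the other lists, the SD was larger in WT fat for 16 of 20 other resident macrophage genes, 9 of 19 general macrophage genes and 2 of 11 lipid-associated macrophage genes.

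**Figure D3:**
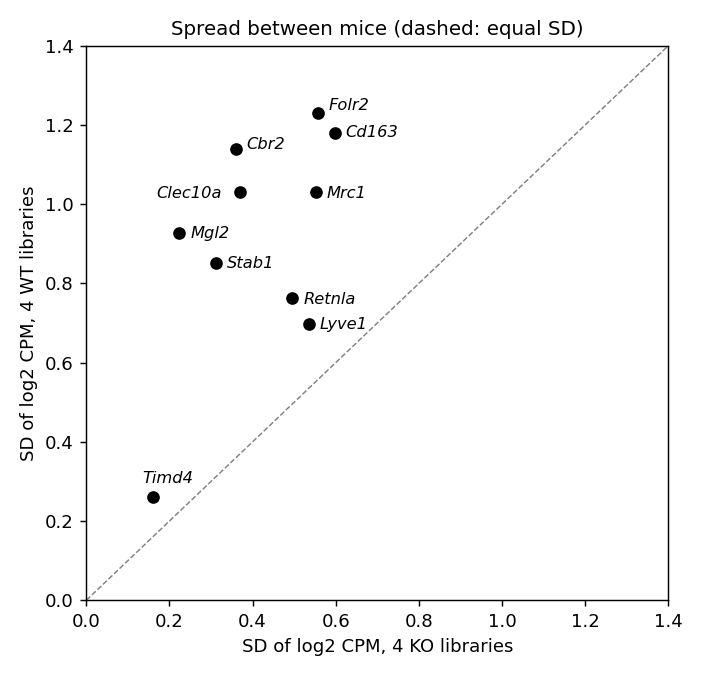
Standard deviation of log2 CPM over the 4 KO libraries (horizontal) and over the 4 WT libraries (vertical), 1 point per gene. All 10 points lie above the dashed line of equal spread, with Timd4 lowest on both axes and Lyve1 closest to the line by ratio, at 1.30.

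Across the 8 mice, 9 of the members moved together and Timd4 stood aside. The 36 pairs without Timd4 had a Pearson r of log2 CPM between 0.70 and 0.99, with a median of 0.91. The 9 pairs with Timd4 had r between 0.33 and 0.62, with a median of 0.43, and Timd4 rests on the fewest counts. The part of counting error in that gap was not tested. The highest values were those of Folr2 with Cbr2 (r = 0.986, rho = 0.976), Clec10a with Stab1 (r = 0.984, rho = 0.952) and Mgl2 with Cbr2 (r = 0.98, rho = 1). Retnla was closest to Lyve1 (r = 0.963, rho = 0.905). These are descriptions over 8 libraries whose genes share the same tissue mixture and library scaling.

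**Figure D4:**
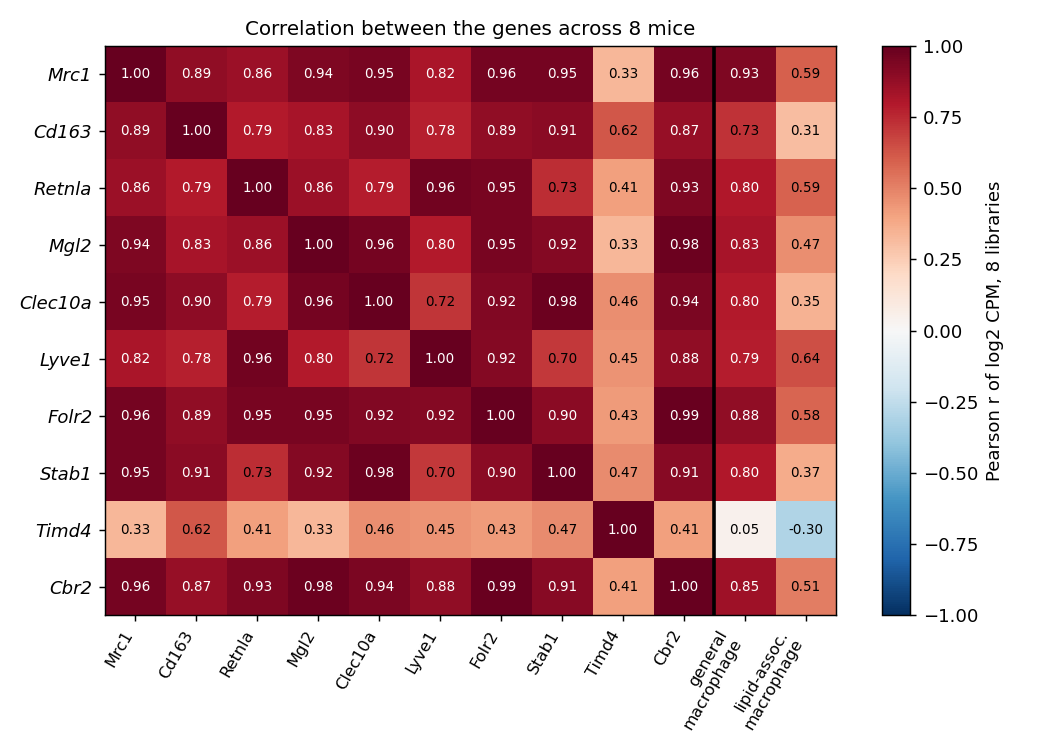
Pearson r of log2 CPM over the 8 libraries for each pair of the 10 genes. Columns right of the thick line give r with the general and the lipid-associated macrophage means. Among pairs of the 10 genes, those with Timd4 stay at or below 0.62 while the other pairs lie at 0.70 or above.

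The genes with the nearest patterns outside the list, among 12899 with a mean of at least 1 CPM, included other macrophage markers. Mrc1 was closest to Pld4 (r = 0.995, rho = 1) and to C1qa, a complement gene of macrophages (r = 0.99, rho = 1). Folr2 and Cbr2 were both closest to F13a1, the coagulation factor XIII subunit made by resident macrophages, with r of 0.988 and 0.992. Clec10a and Stab1 were both closest to Slc9a9, each with r of 0.992. Mgl2 was closest to Ggt5 (r = 0.976), then to Avpr1a (r = 0.975) and the chemokine gene Pf4 (r = 0.971). Lyve1 was closest to the fibronectin gene Fn1 (r = 0.981), Retnla to Hspb2 (r = 0.962) and Cd163 to St3gal2 (r = 0.961). Timd4 was closest to Hey2 (r = 0.983). Each is the highest of many values over 8 libraries, so its size is given only to rank the genes.

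General macrophage genes were measured to see how the members stood against macrophage RNA as a whole. Their mean over 19 genes was 5.62, 4.79, 4.79 and 6.54 log2 CPM in KO libraries 1 to 4, against 3.93, 4.35, 5.78 and 5.23 log2 CPM in WT libraries 1 to 4. KO 4 was highest and WT 1 lowest. All 19 had a log2 fold change above 0, beside 7691 of the 14493 genes tested, with a median of 0.65, and 0 passed in edgeR's test. The group means were 5.43 log2 CPM in KO fat and 4.82 log2 CPM in WT fat, and without KO 4 the KO mean was 5.06 log2 CPM. The genes of the list with the smallest p were Ctss, Aif1, Sfpi1 (which encodes PU.1) and Mpeg1, with log2 fold changes of 1.19, 0.87, 0.84 and 0.92. Without KO 4 these were 0.36, 0.67, 0.32 and 0.28. Csf1r, the receptor for the macrophage growth factor, averaged 129 ± 58.7 CPM in KO fat and 108 ± 60.3 CPM in WT fat (SD, n = 4 each). Emr1, which encodes F4/80, averaged 63.5 ± 47.7 CPM in KO fat and 38.8 ± 24.1 CPM in WT fat (SD, n = 4 each). Cd68 averaged 65.2 ± 51.6 CPM in KO fat and 34.8 ± 22.3 CPM in WT fat (SD, n = 4 each).

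Mrc1 followed that mean most closely over the 8 libraries (r = 0.93, rho = 0.976). The other 8 members besides Timd4 had r from 0.726 for Cd163 to 0.884 for Folr2. Without KO 4 and WT 1, the libraries farthest from the median, r of those 9 members was 0.724 or higher. Timd4 had r of 0.05 over the 8 libraries and 0.807 without those libraries, so its value turns on them. With the mean of the 11 lipid-associated macrophage genes, r was lower for each member, from -0.303 for Timd4 to 0.641 for Lyve1 (rho -0.381 and 0.643). Without KO 4 and KO 1, the libraries farthest from the median of that list, r ran from 0.00709 for Timd4 to 0.601 for Lyve1.

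Set against the general macrophage mean, all 10 members averaged lower in KO than in WT fat, by 0.21 for Mrc1 to 0.78 for Timd4 on the log2 scale. KO 4 set much of their size: without it they ran from -0.0056 for Cd163 to -0.35 for Timd4, with Mrc1 at -0.10 and Mgl2 at -0.10. All 10 were below 0 with each single library left out, and without WT 4 the value nearest 0 was -0.0449, for Cd163. These differences share 1 denominator, which itself averaged higher in KO fat, at 5.4 against 4.8 log2 CPM, and by 0.24 without KO 4. A gene with equal CPM in both genotypes would thus also come out lower in KO fat on this scale. How many of all genes do so was not computed, so the shared sign is not particular to the members. No member had groups that did not overlap, and against Csf1r alone the difference of Mrc1 was above 0, at 0.06. Relative to the macrophage mean, Retnla stood at 3.41, 3.34, 3.19 and 2.18 log2 units in KO libraries 1 to 4, against 3.62, 3.67, 3.30 and 3.83 log2 units in WT libraries 1 to 4. KO 4 was the lowest of the 8 libraries for all 10 members on this scale, while it was the highest of the 4 KO libraries for 6 of the 10 members in CPM. Timd4 stood at -4.71, -4.10, -3.85 and -5.92 log2 units in KO libraries 1 to 4, against -2.995, -3.76, -4.60 and -4.12 log2 units in WT libraries 1 to 4. With the macrophage mean as a covariate in edgeR's fit, the log2 fold changes of the members ran from -0.40 for Folr2 to -0.12 for Stab1, and each had an adjusted p of 1.

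**Figure D5:**
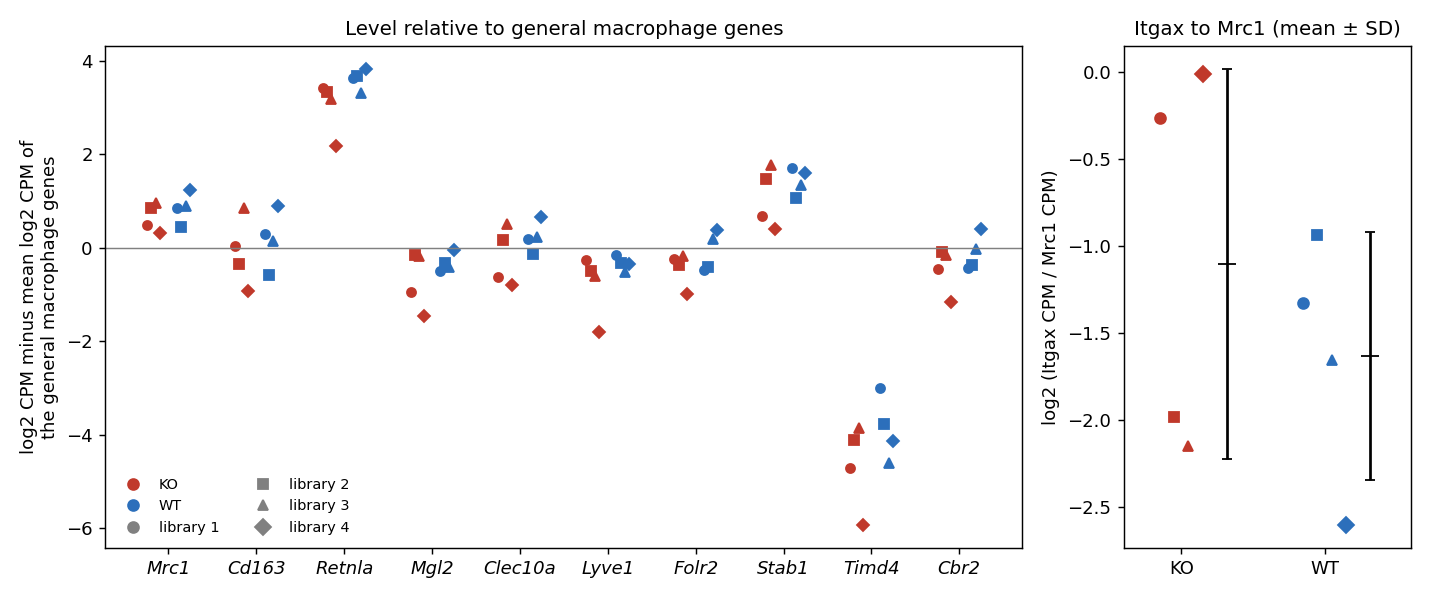
Log2 CPM of each of the 10 genes minus the mean log2 CPM of 19 general macrophage genes, per library, with KO libraries left of WT libraries. KO 4 is the lowest point for each gene, and the groups overlap for each gene. The right panel shows the log2 ratio of Itgax to Mrc1 per library, with mean and SD.

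The ratio of Itgax to Mrc1 is a common index of recruited against M2-type macrophages in fat. On the log2 scale it was -0.26, -1.99, -2.15 and -0.01 in KO libraries 1 to 4, against -1.33, -0.94, -1.66 and -2.60 in WT libraries 1 to 4. KO 1 and KO 4 had the highest ratios and KO 2 and KO 3 were among the lower ones. The means were -1.10 ± 1.12 in KO fat and -1.63 ± 0.71 in WT fat (SD, n = 4 each), a difference of 0.53 with p = 0.429 by exact permutation (two-sided, 70 arrangements), where the smallest possible p is 0.0286. Itgax itself stood at 57.5, 12.5, 12.02 and 115 CPM in KO libraries 1 to 4, against 11.04, 14.6, 32.4 and 14.6 CPM in WT libraries 1 to 4. Gpnmb, a gene of lipid-laden macrophages, showed the same 2 high KO libraries, at 352, 42.8, 49.3 and 563 CPM in KO libraries 1 to 4, against 24.2, 67.5, 130 and 30.5 CPM in WT libraries 1 to 4. In edgeR's test the log2 fold changes were 1.44 for Itgax and 1.99 for Gpnmb, each with an adjusted p of 0.9999. Without KO 4 they were 0.58 and 1.22, and with the macrophage mean as a covariate 0.17 and 0.54. Without both KO 2 and WT 3 that of Itgax was 2.20. All 11 lipid-associated macrophage genes had a log2 fold change above 0, with a median of 0.68 and 0 passing, and of 12 tested M1-type genes 8 were above 0 and 0 passed. In these lists Cd63, a lysosomal membrane gene, and Tnf, an inflammatory cytokine, were the 2 genes with an unadjusted p under 0.05, beside 2.23% of all genes. Cd63 averaged 126 ± 24.8 CPM in KO fat and 96.9 ± 11.9 CPM in WT fat, and Tnf 0.567 ± 0.337 CPM in KO fat and 0.251 ± 0.0971 CPM in WT fat (SD, n = 4 each). The next smallest p-values of the lipid-associated list after Gpnmb were those of Mmp12 and Atp6v0d2, with log2 fold changes of 1.96 and 1.80, and without KO 4 of 0.88 and 0.90.

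Other genes of resident macrophages gave a like picture of wide WT spread and no call. Of 20, all tested, 7 were above 0 and 13 below, with a median log2 fold change of -0.09, and 0 passed. F13a1 averaged 91.6 ± 27.6 CPM in KO fat and 93.2 ± 63.7 CPM in WT fat (SD, n = 4 each). Cd209f, a lectin gene, stood at 5.84, 7.06, 4.46 and 8.66 CPM in KO libraries 1 to 4, against 2.48, 3.67, 23.9 and 22.2 CPM in WT libraries 1 to 4. It was again WT 3 and WT 4 that were high and WT 1 and WT 2 that were low. Its log2 fold change was -1.005 with an SE of 0.69, but -0.54 without WT 3, -0.63 without WT 4, -0.59 without both KO 2 and WT 3, and -0.40 with limma voom. Vsig4, a complement receptor of resident macrophages, averaged 1.14 ± 0.329 CPM in KO fat and 1.89 ± 0.825 CPM in WT fat, a log2 fold change of -0.73 with an SE of 0.42. Mertk, a receptor for dying cells, averaged 27.3 ± 6.40 CPM in KO fat and 34.1 ± 7.18 CPM in WT fat, a log2 fold change of -0.32 with an SE of 0.21. Il10, an anti-inflammatory cytokine, was under 1 CPM in every library.

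The IL-4 and IL-13 pathway was examined because it drives M2-type genes. The ligands were close to absent from the reads: Il4 had 0 to 7 counts per library, Il13 1 to 8 and Il25 0 to 4, and none of the 3 entered the test. The receptor chain Il4ra averaged 54.2 ± 9.92 CPM in KO fat and 50.5 ± 8.36 CPM in WT fat, a log2 fold change of 0.10 with an SE of 0.16. Il1rl1, the receptor for IL-33, averaged 7.52 ± 3.00 CPM in KO fat and 5.50 ± 2.60 CPM in WT fat, and Il33 13.2 ± 8.01 CPM in KO fat and 17.3 ± 6.91 CPM in WT fat (SD, n = 4 each). Of the 5 ligands and receptors tested, 4 were above 0 and 1 below, with 0 passing. The transcription factor Stat6 averaged 154 ± 24.5 CPM in KO fat and 158 ± 10.1 CPM in WT fat, a log2 fold change of -0.04 with an SE of 0.13.

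Among the 7 signalling genes and transcription factors, 4 were above 0 and 3 below, and 0 passed. The kinase gene Jak1 was the only one of them whose groups did not overlap, which held for 1.44% of all genes. It stood at 176 to 191.7 CPM in KO fat against 191.8 to 207 CPM in WT fat. The gap is narrow, and overlap under other scalings was not tested. The log2 fold change of Jak1 was -0.10, with an adjusted p of 0.9999 in edgeR's test. Egr2, a factor induced by IL-4, stood at 6.65, 1.87, 1.37 and 12.5 CPM in KO libraries 1 to 4, against 1.42, 1.94, 4.27 and 2.14 CPM in WT libraries 1 to 4, high in the same KO libraries as Itgax. Its log2 fold change of 1.19 was 0.43 without KO 4 and 0.06 with the macrophage mean as a covariate. Of 6 tested target genes, 3 were above 0 and 3 below, with a median of -0.02 and 0 passing. Arg1, the arginase of M2-type cells in mice, averaged 0.919 ± 0.426 CPM in KO fat and 0.811 ± 0.330 CPM in WT fat. Chi3l3, the chitinase-like protein Ym1, averaged 0.541 ± 0.414 CPM in KO fat and 0.745 ± 0.668 CPM in WT fat, so both of these textbook M2 genes were far below Retnla in the same libraries. Ccl24, an eosinophil chemokine, stood at 4.43, 6.69, 6.72 and 4.50 CPM in KO libraries 1 to 4, against 3.22, 3.18, 8.48 and 12.5 CPM in WT libraries 1 to 4. Its WT 3 and WT 4 libraries were above, and WT 1 and WT 2 below, all 4 KO libraries, as for Cd163, Mgl2, Clec10a, Folr2 and Cbr2.

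Some of the members are also made by other cells of fat, and markers of those cells were read beside them. The lymphatic list, which matters for Lyve1, summed to 36.2 to 83.0 CPM in KO fat and 51.9 to 91.2 CPM in WT fat, but most of the highest sums was Pdpn, a gene of other stromal cells too, at 70.7 CPM in KO 1 and 80.0 CPM in WT 2. Of its rarer genes, Reln and Mmrn1 ran another way. Reln stood at 0.337, 8.95, 0.316 and 0.205 CPM in KO libraries 1 to 4, against 0.557, 0.353, 4.25 and 5.70 CPM in WT libraries 1 to 4. Mmrn1 stood at 0.653, 13.8, 1.16 and 0.675 CPM in KO libraries 1 to 4, against 1.16, 1.45, 7.42 and 6.03 CPM in WT libraries 1 to 4. Both were higher in WT 3 and WT 4 than in WT 1 and WT 2, as Lyve1 was, and both were highest in KO 2, where Lyve1 was not. Flt4 did not have that WT order. It stood at 11.18, 16.83, 17.41 and 8.92 CPM in KO libraries 1 to 4, against 16.55, 9.28, 18.25 and 12.49 CPM in WT libraries 1 to 4. The defining factor Prox1 had only 1 to 38 counts per library, with the most in KO 2 (38) and WT 3 (18). Of the 4 tested genes of the lymphatic list, 1 was above 0 and 3 below, and 0 passed. The dendritic list, which matters for Mgl2 and Clec10a, summed to 30.2 to 47.1 CPM in KO fat and 26.1 to 54.9 CPM in WT fat. The dendritic lectin gene Cd209a stood at 0.337, 0.659, 0.337 and 9.29 CPM in KO libraries 1 to 4, against 0.186, 3.27, 16.7 and 8.13 CPM in WT libraries 1 to 4. Of the 10 dendritic genes 5 were above 0 and 5 below, and 0 passed. Cd209a had the lowest log2 fold change of them, at -1.41, and Batf3 the highest, at 0.58. That of Cd209a moved over -4.005 to -0.54 with single libraries left out. The blood endothelial list, which matters for Stab1, summed to 603 to 993 CPM in KO fat and 651 to 1004 CPM in WT fat, with 1 of its 7 genes above 0 and 6 below. The part of these cells in the members' levels was not tested.

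Further lists bear on the make-up of the samples. Monocyte genes summed to 1942 to 4329 CPM in KO fat and 2066 to 5240 CPM in WT fat, with 3 of 6 above 0. Eosinophil and innate lymphoid genes, whose cells secrete IL-4 and IL-13 in fat, summed to 2.10 to 4.32 CPM in KO fat and 1.51 to 2.98 CPM in WT fat, with 5 of 5 tested genes above 0 and 0 passing. Mesothelial genes summed to 104 to 798 CPM in KO fat and 168 to 908 CPM in WT fat, with 0 of 5 above 0, and genes of cavity macrophages to 33.8 to 58.6 CPM in KO fat and 46.8 to 58.9 CPM in WT fat, with 0 of 4 above 0. The 8 adipocyte genes summed to 31860 to 45860 CPM in KO fat and 33020 to 47250 CPM in WT fat, with 4 of 8 above 0. The epithelial list summed to 6.86 to 118 CPM in KO fat and 10.2 to 54.4 CPM in WT fat, and its genes did not move together. Foxj1, a factor of ciliated cells, was at 26.05 CPM in KO 2 and 7.97 CPM in WT 3, as Epcam was high there. Krt7, a keratin that mesothelium also makes, was instead high in KO 1, at 42.3 CPM, and in WT 2, at 53.5 CPM, and was at 8.60 CPM in KO 2 and 13.4 CPM in WT 3. None of these lists had a gene that passed in edgeR's test. Without KO 2 and WT 3, none of the 10 members passed in edgeR's test, and the log2 fold changes of Retnla, Clec10a, Folr2 and Cbr2 were above 0, at 0.28, 0.39, 0.59 and 0.41.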

How the data were processed

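Each deposited table, 1 for each mouse, lists read counts by gene symbol. The values are whole numbers with differing totals, so the authors deposited them unnormalized. The submitters' processing notes list STAR 2.4.0g1 and featureCounts, with FastQC 0.11.2, Cufflinks, edgeR and the mm10 build; the strand setting is not given in the sources used here. Genotypes and replicate numbers come from the labels, which call the libraries separate mice. P-values concern the difference between KO and WT fat, judged against the variation between these 8 mice.

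Counts were tested with edgeR 4.0.16 (R 4.3.3) using its quasi-likelihood F test (robust dispersion), TMM scaling (factors 0.966 to 1.05), filterByExpr and Benjamini-Hochberg adjustment over 14493 genes at 0.05. CPM uses TMM-scaled totals, log2 CPM adds a prior count of 2, and CPM per kb divides by exonic bases of the authors' annotation. Libraries held 46444435 to 51431956 counts, and edgeR's common biological coefficient of variation stood at 0.301. Shared 50-base words were counted in GENCODE transcripts of the same assembly. The fit was tested on simulated data. By a chi-square test of their counts, no libraries agreed within sampling noise.

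Alternatives were other scalings and filters, DESeq2 1.42.0, limma 3.58.1 voom, a replicate block, a macrophage covariate, left-out libraries and other denominators. The members, lists and tests were chosen with earlier results of these data known. Besides the 10 members, the genes that could be named were the 4 of each list with the smallest p, a fixed set of markers and 3 nearest patterns per member, of which the text prints a part. F13a1 is printed as a nearest pattern. Lists of other cells are given mostly as sums, and their genes were not recomputed under the alternatives apart from fixed markers. Of 159 listed symbols 5 matched by an older name. The targeted gene is not reported here.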

Additional observations from a re-analysis of the deposited data

Results flagged for a closer look

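Within groups of 4 libraries, 7 of 130 gene and genotype combinations held a library far from the other 3 by Dixon's criterion, and chance alone gives about 6.5. Of the members, Cd163 in KO 2 was at 4.45 log2 CPM, with the other KO libraries between 5.63 and 5.66, and Mgl2 in KO 4 was at 5.09 log2 CPM, with the others between 4.61 and 4.68. Among other macrophage genes, Vsig4 in WT 2 was at -0.50 log2 CPM (others 1.11 to 1.32) and Mertk in WT 2 at 4.55 log2 CPM (others 5.19 to 5.29). The dendritic cell gene Batf3 in KO 4 was at 3.06 log2 CPM (others 1.92 to 2.01). Reln in KO 2 was at 3.17 log2 CPM (others -2.03 to -1.41), and Epcam in WT 3 at 2.54 log2 CPM (others -2.20 to -1.70). None of these libraries was left out of the values in the report.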

How the results depend on the processing

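None of the 10 members passed under any alternative, in either direction, with 0 called each time. Across all genes, the 0 higher calls became 8 with DESeq2 and 1 with the macrophage covariate. The 2 lower calls became 9 with DESeq2 and 0 with total counts, no low-count filter, limma voom, the replicate block, the macrophage covariate, WT library 3 and KO library 2 left out, and each library left out in turn (0 to 0). The cause was not tested. Of 961 log2 fold changes of 54 named genes recomputed over the alternatives, 88 changed sign, 58 of them with 1 library left out, and none crossed the threshold.

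With the macrophage covariate, values of the other sign were Mrc1 -0.18, Cd163 -0.16, Mgl2 -0.17, Lyve1 -0.18, Stab1 -0.12, Arg1 -0.26, Flt4 0.00543, Emr1 -0.12, Csf1r -0.19, Adipoq 0.10 and Mmrn1 -0.0407. Emr1 and Csf1r belong to the list whose mean is that covariate, so their values in this fit are not independent of it. With limma voom the values of the other sign were Retnla 0.0297, Clec10a 0.19, Folr2 0.25, Cbr2 0.25 and Mmrn1 -0.85. With the replicate block they were Retnla 0.0171, Clec10a 0.19, Folr2 0.23, Cbr2 0.24 and Mmrn1 -1.18. Without WT 3 and KO 2 they were Retnla 0.28, Clec10a 0.39, Folr2 0.59, Cbr2 0.41, Flt3 0.23, Stat6 0.0633, Adipoq 0.00884 and Mmrn1 -1.80, and with no filter Mmrn1 -0.00338. The cause was not tested.

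Leaving out each library in turn, log2 fold changes ranged from -0.12 to 0.58 for Mrc1, -0.21 to 0.46 for Cd163, -0.27 to 0.17 for Retnla, -0.20 to 0.36 for Mgl2, -0.28 to 0.30 for Clec10a, -0.19 to 0.41 for Lyve1, -0.33 to 0.42 for Folr2, -0.13 to 0.43 for Stab1 and -0.31 to 0.32 for Cbr2. For genes that did not cross 0, Itgax ranged from 0.58 to 1.88, Gpnmb from 1.22 to 2.63, Cd209f from -1.35 to -0.54 (-0.40 with limma voom and -0.40 with the replicate block), Egr2 from 0.43 to 1.61, Emr1 from 0.12 to 1.16, Cd68 from 0.28 to 1.39 and Tnf from 0.66 to 1.37. Other ranges that crossed 0 were -0.20 to 0.15 for Adipoq, -0.0773 to 0.36 for Arg1, -0.53 to 0.17 for Ccl24, -1.12 to 0.27 for Chi3l3, -0.0685 to 0.58 for Csf1r, -2.25 to 4.59 for Epcam, -0.57 to 0.14 for Flt3, -0.22 to 0.0891 for Flt4, -3.30 to 5.99 for Foxj1, -2.28 to 0.50 for Mmrn1, -0.84 to 0.0627 for Pdpn, -3.24 to 0.51 for Reln and -0.11 to 0.0624 for Stat6. The Itgax to Mrc1 difference ran from 0.17 to 0.88.

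Deviations of same-numbered KO and WT libraries from their group means correlated at 0.117, -0.0152, -0.32 and -0.0173, so the numbers were not taken to pair the mice, and the replicate block called 0 members. The leave-one-out values of the spread between mice and of the levels relative to macrophage genes were chosen after seeing the data. The SE of the log2 fold change was 0.37 or more for 9 of the members and 0.24 for Timd4.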
